A study of Mus musculus with 15 samples.

Results

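The small RNA content of unperturbed microglia was described from the 5 libraries, of 15 in the series, that carry the label WT microglia (Me-X04 neg). They were chosen by that label alone, and every deposited table was read for them. The study sorted CD11b and CD45 positive microglia from the brains of WT mice and of 5xFAD mice, a transgenic model that deposits amyloid, after the animals had been injected with Methoxy-X04 (Me-X04), which stains amyloid. The other 10 libraries, from 5xFAD microglia with and without the dye, were not used here, and no groups were compared. The labels give the WT mice the strain 5xFAD, the genotype WT, Me-X04 injection and an age of 2 months. The study's text gives other ages for its animals, a conflict that the deposited tables do not resolve. Each library is numbered as its own WT animal (WT1 to WT5), so the spread given here is that between mice, sorts and libraries together. Dye, dissociation and sorting were common to all 5 libraries, and Me-X04 negative here means cells from a brain without transgene-derived amyloid.

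Microglia are the resident macrophages of the brain. MicroRNAs (miRNAs) are short RNAs cut from hairpin precursors, and either the 5p or the 3p arm of a hairpin can be loaded into an Argonaute protein, where bases near the 5′ end of the miRNA, the seed, pair with target messenger RNAs and lower their stability or translation. miRNAs with the same seed share many predicted targets and are grouped as a family. In macrophages, some miRNAs mark the blood-forming lineage and others change with inflammatory signals.

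Each library was built with unique molecular identifiers (UMIs), tags that let copies of one starting molecule be counted once. A share is an entry's UMIs as a percentage of all miRNA UMIs in that library, and CPM is the same ratio times 1e6. A share describes composition and not an amount per cell. The libraries held 22188623, 24326117, 22793784, 23312709 and 25714243 reads in WT replicates 1 to 5. Their miRNA UMIs numbered 425980, 417984, 660315, 554371 and 1159231, and all values per library below keep this order. No deposited UMI value lay between 1 and 9. A listed 0 therefore stands for anything from 0 to 9 UMIs, which allows up to 7.76 CPM in replicate 5 and up to 21.5 CPM in replicate 2.

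The sequences that carry most of the miRNA signal are shown by family, from RefSeq on GRCm38.p6, with the seed (bases 2 to 8) in capitals. The let-7 family, whose members repress growth and stem cell regulators such as Lin28a and Hmga2, shares its seed across the 7 abundant members shown here.
let-7c-5p: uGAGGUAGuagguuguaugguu
let-7f-5p: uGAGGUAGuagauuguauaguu
let-7i-5p: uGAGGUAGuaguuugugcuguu
let-7a-5p: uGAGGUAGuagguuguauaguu
let-7b-5p: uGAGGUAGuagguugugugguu
let-7g-5p: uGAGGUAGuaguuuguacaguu
let-7d-5p: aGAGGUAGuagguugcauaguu
The next families were each led by 1 or 2 members, and these are shown so that the shared and private seeds can be compared.
miR-16-5p: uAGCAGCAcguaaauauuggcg
miR-146a-5p: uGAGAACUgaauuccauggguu
miR-342-3p: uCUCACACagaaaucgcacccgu
miR-125b-5p: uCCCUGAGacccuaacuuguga
miR-125a-5p: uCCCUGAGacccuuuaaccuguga
miR-26a-5p: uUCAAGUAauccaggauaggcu
miR-26b-5p: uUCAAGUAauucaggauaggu
miR-142a-3p: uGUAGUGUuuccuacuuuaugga
miR-29a-3p: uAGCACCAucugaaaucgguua
All but 1 of these 16 sequences begin with U. Among the 9 let-7 and miR-98 sequences in RefSeq, 4 of the 36 pairs differ by a single base and 10 by 2 bases, so reads with an error or a trimmed end can be assigned to a neighbour. The split within the family is therefore less certain than its total.

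miR-16-5p was the most abundant miRNA, followed by let-7c-5p, let-7f-5p and miR-146a-5p. miR-16-5p, which represses cell cycle and survival genes such as Bcl2, took 16.8, 17.0, 16.7, 16.7 and 16.1% of miRNA UMIs. Its mean was 16.6% ± 0.338 (SD, n = 5), and no other of the 50 most abundant miRNAs varied as little in share. Counting error was smaller still, with a 95% Wilson interval of 16.9 to 17.1% in replicate 2. Scaling factors between the libraries (TMM, 0.859 to 1.19) were not applied, so this steadiness is one of share alone. let-7c-5p took 18.7, 13.7, 14.7, 12.6 and 12.9% (mean 14.5% ± 2.45, SD, n = 5). It exceeded miR-16-5p in replicate 1 alone, so miR-16-5p ranked above it in 4 of 5 libraries, by a mean of 2.13 percentage points with an SD of 2.36 across libraries. The order of these leading miRNAs is thus within the spread between libraries.

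let-7f-5p took 8.85, 8.26, 11.04, 9.56 and 10.8% (mean 9.71% ± 1.21, SD, n = 5). miR-146a-5p, a feedback inhibitor of NF-κB signalling through Traf6 and Irak1, took 6.82, 9.60, 8.03, 8.20 and 8.14% (8.15% ± 0.984). Replicate 2 was the only library in which miR-146a-5p lay above let-7f-5p. let-7c-5p stayed above let-7f-5p, and miR-146a-5p above let-7i-5p, in all 5 libraries. let-7i-5p (5.69% ± 0.454) and let-7a-5p (5.57% ± 0.651) could not be ordered, since let-7i-5p was the higher in 2 of 5 libraries.

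miR-342-3p, encoded within the Evl gene, took 3.68, 3.80, 4.13, 4.46 and 5.05% (4.22% ± 0.555, SD, n = 5). let-7b-5p took 4.31, 3.16, 3.34, 2.88 and 2.65% (3.27% ± 0.639). miR-342-3p was highest in replicate 5, where let-7b-5p was lowest, and the reverse held in replicate 1. miR-125b-5p, which is abundant in blood stem cells and in microglia, took 2.29, 3.19, 2.46, 2.59 and 3.13%. miR-142a-3p, whose expression is largely limited to blood-derived lineages, took 2.16, 2.39, 2.28, 2.55 and 1.79%. miR-125b-5p was above miR-142a-3p in all 5 libraries.

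The remaining 10 of the leading 20 lay between 2.05 and 0.498% on average. miR-26a-5p (2.05% ± 0.147) and miR-26b-5p (2.01% ± 0.196) were nearly level, with miR-26a-5p higher in 3 of 5 libraries and a ratio between 0.950 and 1.10. miR-29a-3p, a repressor of collagen and DNA methyltransferase genes, took 1.32, 1.77, 1.49, 1.87 and 2.89%, so that replicate 5 stood above the other libraries. miR-125a-5p averaged 1.30%, miR-191-5p 1.19%, miR-181a-5p 1.08%, miR-103-3p 0.798%, let-7g-5p 0.758%, let-7d-5p 0.644% and miR-30d-5p 0.498%. miR-125a-5p lay above miR-191-5p in all 5 libraries, whereas miR-191-5p and miR-181a-5p changed places in 2, and miR-103-3p exceeded let-7g-5p in 2 of 5 libraries. Of the leading 20 by mean share, 18 were among the top 20 of every library, and 9 of the leading 10 were in every top 10.

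**Figure D1:**
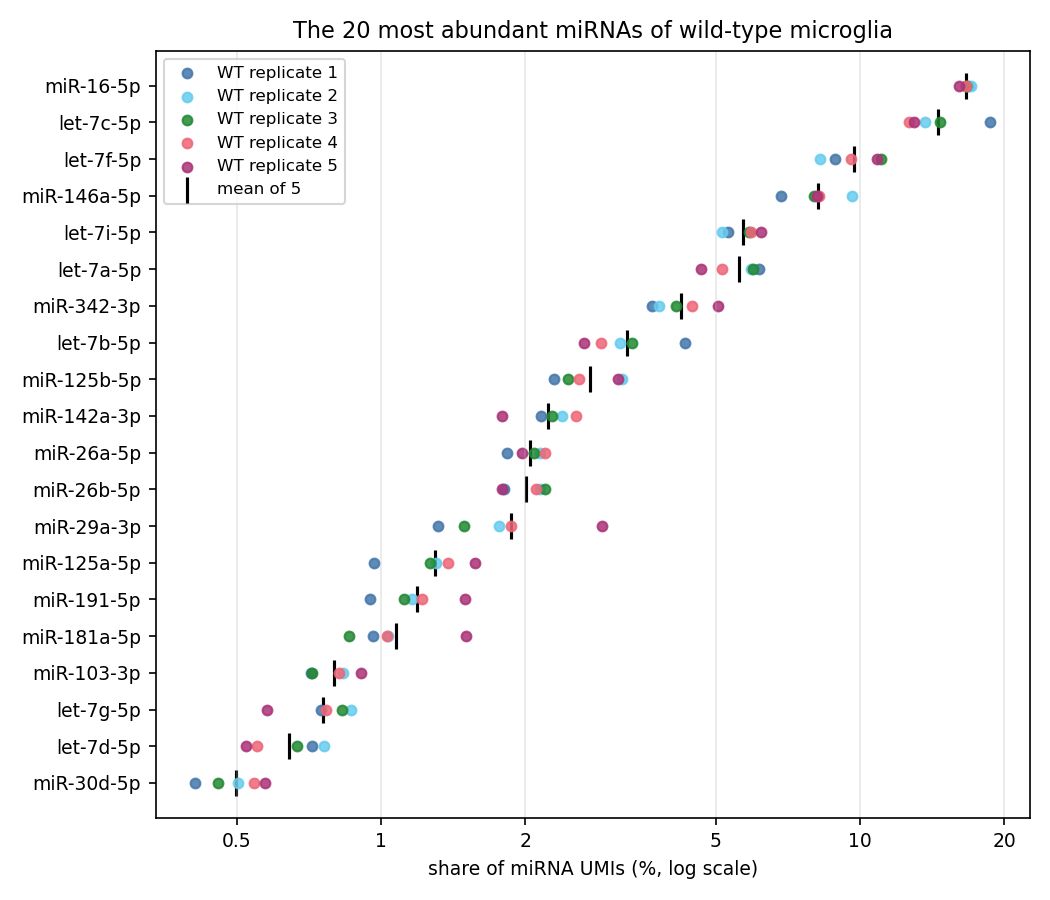
Share of miRNA UMIs (%, x axis, log scale) of the 20 most abundant miRNAs (y axis) in WT replicates 1 to 5; points are libraries and the vertical tick marks the mean of 5. miR-16-5p lies between 16.1 and 17.0% in all 5 libraries, while let-7c-5p spans 12.6 to 18.7%.

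A few miRNAs held most of the molecules. The number needed for 50% of miRNA UMIs was 4, 5, 4, 5 and 5. The 10 most abundant held 75.0, 72.1, 74.5, 70.6 and 71.5% (72.7% ± 1.91, SD, n = 5), and the 20 most abundant held 84.9% ± 1.15. All 5 libraries thus rose steeply, but not to the same share. The 2 most abundant held 29.0 to 35.4%, and the range was narrower for the 100 most abundant, at 93.4 to 95.6%. The miRNAs needed for 90% numbered 34, 34, 32, 47 and 34, and for 99% they numbered 695, 621, 658, 956 and 911. Replicate 4 had the flattest distribution. The effective number of miRNAs, the exponential of the Shannon entropy, was 27.9, 30.1, 27.9, 35.2 and 30.8.

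**Figure D2:**
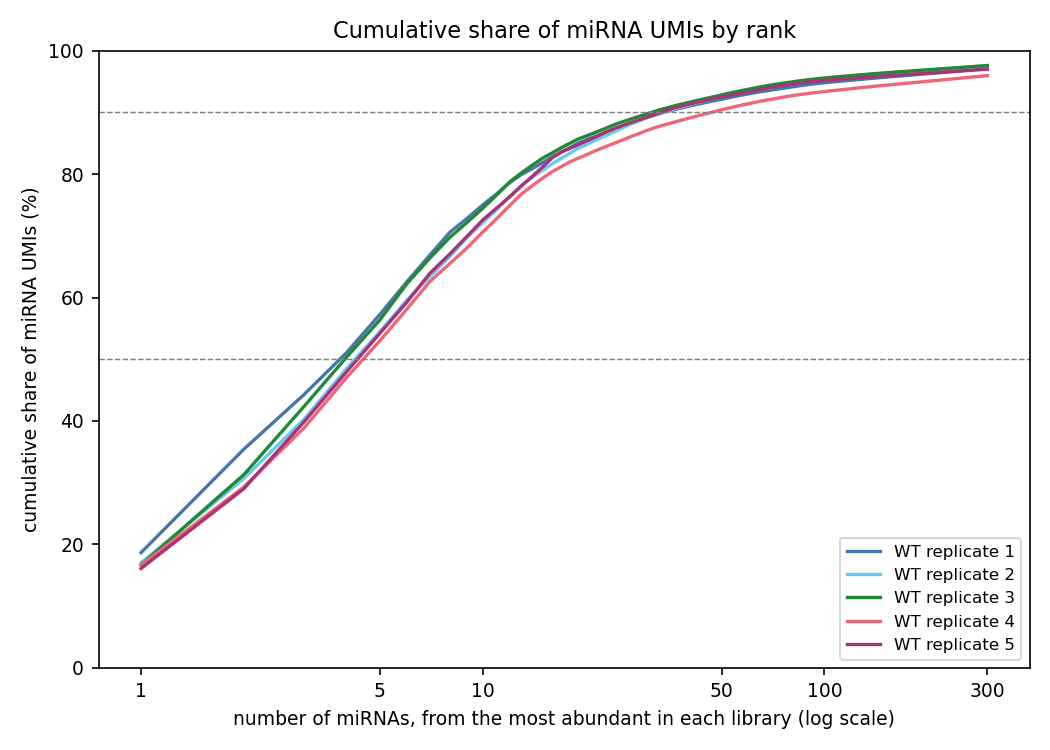
Cumulative share of miRNA UMIs (%, y axis) against the number of miRNAs taken in order of abundance within each library (x axis, log scale), 1 line per WT replicate. The lines run from 29.0 to 35.4% at 2 miRNAs and from 70.6 to 75.0% at 10. The line of replicate 4 is the lowest thereafter, reaching 90% at 47 miRNAs.

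Of 1834 miRNA entries, 760 had 10 or more UMIs in all 5 libraries and 137 in none. The number in each library was 1054, 975, 1150, 1392 and 1623. The deepest library listed the most, and when every library was read at the floor share of the shallowest (23.9 CPM) the numbers were 966, 975, 785, 1118 and 786, with 583 in all 5. At that matched floor replicate 4, not replicate 5, had the most miRNAs. Only 2 miRNAs averaged 10% or more and 14 lay between 1 and 10%. A further 38 lay between 0.1 and 1%, and 124 between 0.01 and 0.1%. The 1519 detected entries under 0.01% summed to 3.98% ± 0.779 of miRNA UMIs.

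The let-7 seed family, with 11 listed members, took 45.4, 38.4, 43.0, 38.0 and 38.8% of miRNA UMIs (40.7% ± 3.29, SD, n = 5). let-7c-5p supplied the largest part of it, and the family was highest in replicate 1, where let-7c-5p was also highest. Within the 9 let-7 and miR-98 sequences, let-7c-5p made up 41.1, 35.6, 34.1, 33.3 and 33.4%. let-7f-5p made up 19.5, 21.5, 25.7, 25.2 and 27.9% of the same molecules. let-7i-5p made up 11.7, 13.4, 13.7, 15.6 and 16.0%. The libraries with less let-7c-5p in the family were those with more let-7f-5p and let-7i-5p, as shares that sum to a fixed total must partly be. let-7e-5p (0.437% of miRNA UMIs) and miR-98-5p (0.0937%) were minor members, and let-7k and miR-1961, which carry the same seed, averaged 0.00957 and 0.00150%.

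The family of miR-16-5p, seed AGCAGCA, took 17.0% ± 0.361 (SD, n = 5), of which miR-16-5p itself was 97.8%. The other abundant members are shown because their seeds are identical while their levels were far apart.
miR-322-5p: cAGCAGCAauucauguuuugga
miR-15a-5p: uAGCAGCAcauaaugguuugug
They took 0.169 and 0.125% of miRNA UMIs on average, and miR-195a-5p and miR-15b-5p took 0.0558 and 0.0192%. miR-195a-5p is 3 edits from miR-16-5p and ranked 74 by UMIs but 100 by reads, so its level is less certain. miR-16-5p has 2 genes on GRCm38, each beside a miR-15 gene. It exceeded miR-15a-5p by 112 to 158 times and miR-15b-5p by 735 to 1253 times across the 5 libraries. miR-16-5p is summed over both genes, which cannot be divided, so neither ratio is that of a single pair of neighbours. Counted by UMIs, the neighbours were still not near equal at both places. Whether these sequences entered the libraries equally well was not tested. The gap was present in every library.

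miR-146a-5p made up 98.5% of the GAGAACU family, which took 8.28% ± 1.00, and its relative miR-146b-5p averaged 1207 CPM. miR-146b-5p is 2 edits from miR-146a-5p and ranked 48 by UMIs but 58 by reads. The CCCUGAG family took 4.11% ± 0.589 and was split between miR-125b-5p (66.4% of it) and miR-125a-5p (31.6%), with miR-351-5p at 1.86%. The UCAAGUA family, miR-26a-5p and miR-26b-5p, took 4.06% ± 0.329. miR-342-3p (seed CUCACAC) and miR-142a-3p (seed GUAGUGU) were the sole matched members of their families. The AGCACCA family took 1.61, 2.10, 1.79, 2.22 and 3.19%, of which miR-29a-3p was 85.5%, miR-29b-3p 11.7% and miR-29c-3p 2.77%. Replicate 5 was highest here too, and the ratio of miR-29a-3p to miR-29b-3p, whose hairpins are neighbours on chromosome 6 (miR-29b-3p has another copy on chromosome 1), was 5.23, 6.56, 6.09, 6.45 and 12.8.

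Together these 8 families held 82.8% of miRNA UMIs on average. In every library 2 seeds were enough for 50% of the matched UMIs, and 5 or 6 seeds for 75%. Of the 1834 entries 1582 had a sequence in RefSeq, covering 98.3% of UMIs and 1324 seeds.

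**Figure D3:**
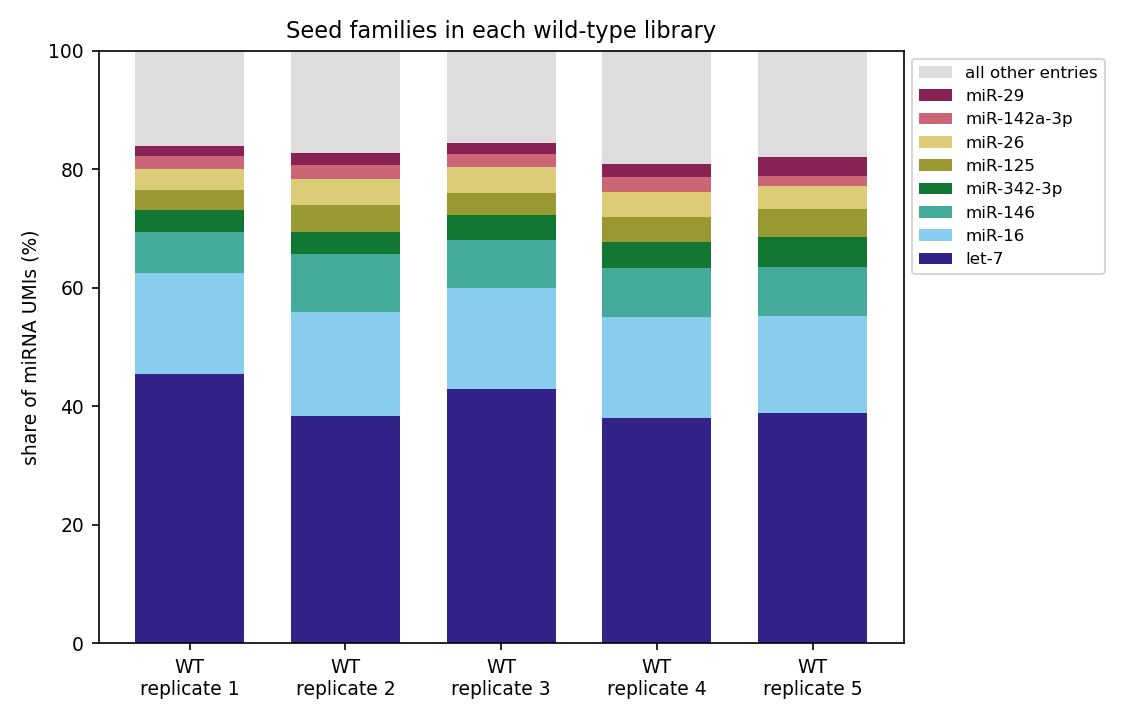
Stacked shares of miRNA UMIs (%, y axis) of the 8 largest seed families and of all other entries in WT replicates 1 to 5 (x axis), with families named in the legend. The let-7 family lies between 38.0 and 45.4% and the miR-16-5p family between 16.5 and 17.5%, and the other 6 families lie below 10%.

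Argonaute proteins favour guide strands with a 5′ U. miRNAs that begin with U took 89.9, 89.4, 90.4, 88.6 and 88.6% of the matched UMIs (89.4% ± 0.803, SD, n = 5). Without the let-7 family the share was 83.0% ± 0.934. With each of the 662 matched miRNAs found in all 5 libraries counted once it was 40.2%, close to the 40.3% of all matched entries. A 5′ U was thus more frequent among molecules than among entries, and 54 of the 89 matched miRNAs in the leading 100 began with U. By listed length, 22-base miRNAs took 79.9% ± 1.57 of matched UMIs and make up 45.3% of the entries, while 23-base miRNAs took 12.3% and 21-base miRNAs 4.90%.

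The 5p arm dominated by molecule but less clearly by hairpin. Of UMIs on entries named by arm, 85.6, 84.1, 85.1, 82.8 and 82.7% lay on 5p arms (84.1% ± 1.32, SD, n = 5), and 72.9% ± 1.08 without the let-7 family. Of 699 hairpins with both arms listed by the same name, 103 averaged 100 or more UMIs. The 5p arm was the higher in all 5 libraries in 52 of them, the 3p arm in 42, and 9 changed arm between libraries. With a 10-fold margin in every library there were 28 and 16, and 59 met neither. A listed 0 was taken as 0 here although it may hide up to 9 UMIs. The margin of a weak hairpin such as miR-223, with 72 against 0 UMIs in replicate 1, is therefore not assured. When the genes of multi-copy miRNAs such as miR-16 and let-7a were summed, a step chosen after the values were seen, 121 pairs gave 63 for 5p, 49 for 3p and 9 mixed.

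Among the 10 most abundant hairpins whose arms share a name, which leaves out multi-copy miRNAs such as miR-16 and let-7c, miR-146a, let-7i, miR-26b, miR-125a, miR-191 and let-7g gave 99.4% or more of their molecules from the 5p arm on average. let-7b gave 94.2, 90.8, 94.7, 96.2 and 96.6% from 5p, a split that rests on let-7b-3p, an entry with few reads per UMI (1.35) whose level is uncertain. In the opposite direction, the 5p arm supplied 0.747% of miR-342, 2.67% of miR-142a and 0.299% of miR-29a molecules. Apart from let-7b, arm use in these hairpins was nearly exclusive, in either direction. In the 50 most abundant hairpins of this kind, 31 favoured 5p and 18 favoured 3p in every library. The exception was miR-139, with 40.6, 54.0, 45.0, 47.6 and 42.5% from 5p, on both sides of equality.

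Other pairs near equality were less abundant. The 5p share was 62.7, 51.5, 48.4, 42.1 and 34.6% for miR-674, and 56.8, 60.4, 55.2, 46.9 and 44.1% for miR-3068. miR-503 gave 41.2, 57.3, 46.8, 61.7 and 62.7%, and miR-7015 gave 59.4, 27.1, 38.6, 73.8 and 61.1%. None of these hairpins held 1 side in all libraries, and miR-7015 was the widest. Its arms had few UMIs, with 38 for 5p and 26 for 3p in replicate 1, and 16 and 43 in replicate 2. Whether counting error alone gives such changes of side was not tested.

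**Figure D4:**
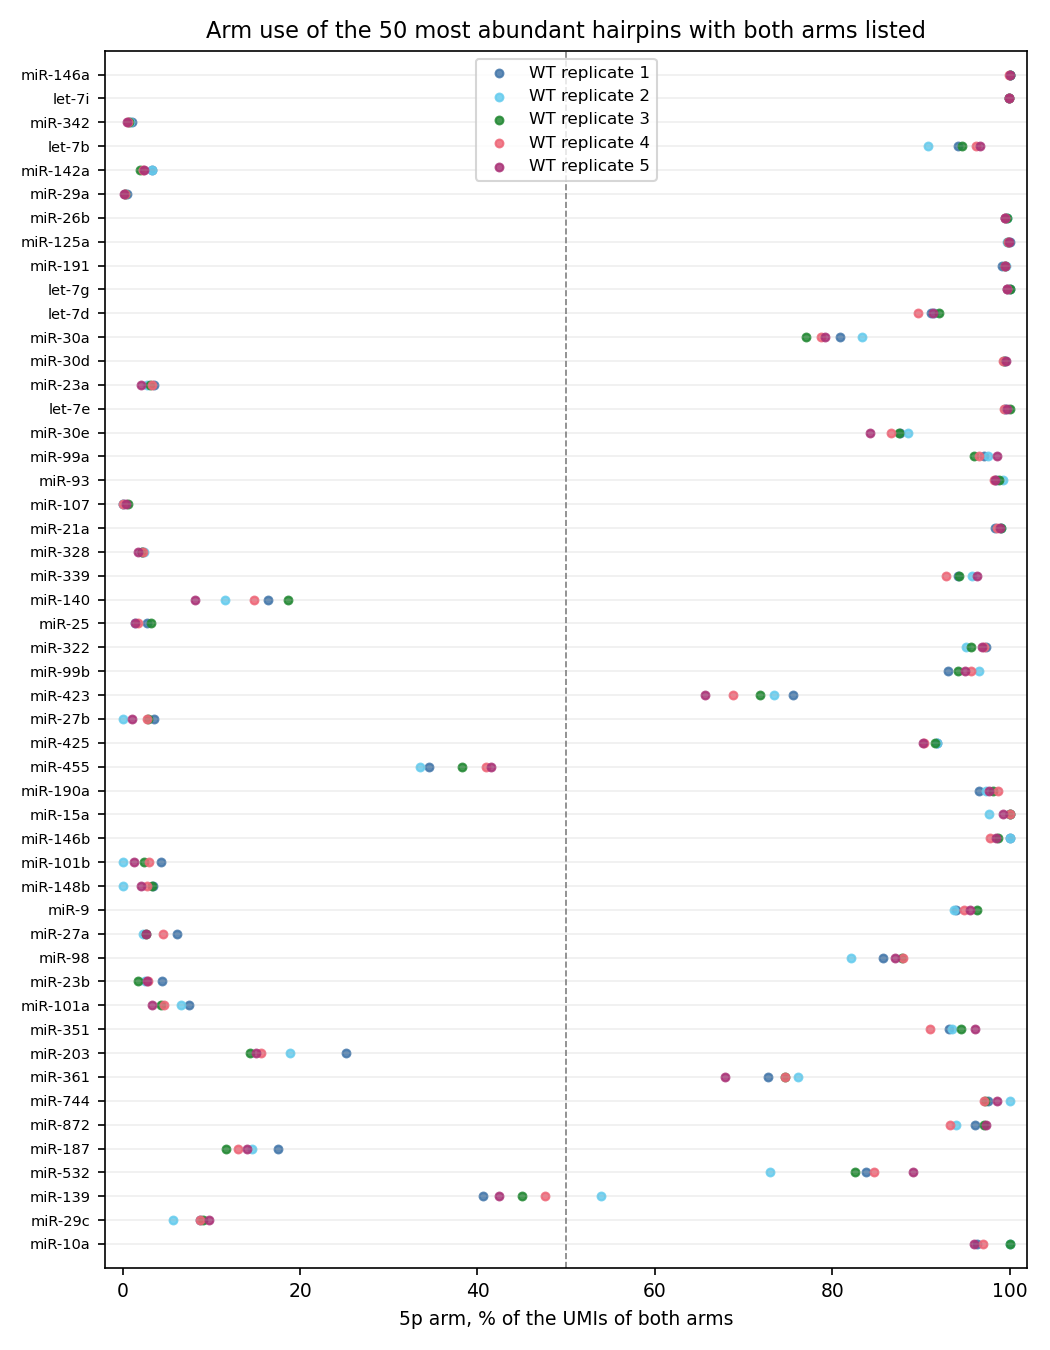
Share of each hairpin's molecules from the 5p arm (%, x axis) for the 50 most abundant hairpins with both arms listed (y axis, most abundant at the top), 1 point per WT replicate; the dashed line marks equal use and 0 or 100% means that the other arm had fewer than 10 UMIs. Most hairpins sit near an end of the axis, and the points of miR-139, at 40.6 to 54.0%, lie on both sides of the line.

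The leading miRNAs came from scattered genes. The 19 of the leading 20 found in RefSeq have 26 loci on GRCm38, 7 of them more than 1, and 23 loci lie within a host transcript of the same strand. Reads cannot be divided between identical copies. miR-16-5p maps to an intron of Smc4 at chr3:69009918-69009939 and to an intron of Dleu2 at chr14:61631936-61631957. let-7c-5p maps to an exon of the noncoding Lncppara at chr15:85706616-85706637 and to an intron of Mir99ahg at chr16:77599672-77599693. miR-146a-5p, at chr11:43374435-43374456, lies outside annotated genes of its strand. miR-342-3p lies in an intron of Evl at chr12:108658680-108658702, and miR-142a-3p in an intron of Mir142hg at chr11:87756903-87756925. The miR-26 genes lie in introns of Ctdspl, Ctdsp2 and Ctdsp1, which encode related phosphatases, and those of miR-103-3p in introns of the pantothenate kinase genes Pank2 and Pank3.

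Some neighbouring hairpins kept their proportions between libraries. miR-191-5p exceeded miR-425-5p by 9.04 to 10.8 times, and miR-125a-5p exceeded miR-99b-5p by 8.75 to 10.8 times. Others did not. The ratio of let-7c-5p to miR-99a-5p, whose hairpins share a locus on chromosome 16, was 84.3, 58.3, 59.0, 38.0 and 25.1. let-7c-5p also has a copy on chromosome 15, so this ratio mixes the output of 2 loci.

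The label of the cells was set against marker miRNAs. The 5 given for these cells were listed in all 5 libraries and summed to 389862 to 444263 CPM, but they were uneven. Most of the sum was miR-16-5p and let-7c-5p, at 166396 and 145142 CPM on average. The list was chosen with earlier results of these data known, so its sum is no check of the label. miR-16-5p, let-7c-5p, miR-146a-5p and miR-142a-3p ranked 1, 2, 4 and 10. miR-223-3p, best known from neutrophils and other myeloid cells, ranked 96 with 72, 140, 163, 151 and 334 UMIs, a mean of 262 CPM. miR-142a-3p exceeded it by 62.1 to 128 times. The myeloid list of 7 summed to 107533 ± 11479 CPM (SD, n = 5), and all but miR-223-5p were listed in every library. The 4 miRNAs taken as enriched in microglia, miR-99a-5p, miR-125b-5p, let-7c-5p and miR-342-3p, summed to 217811 ± 18319 CPM, most of it let-7c-5p.

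Markers of other cell types were present at low levels. miR-124-3p, the defining neuronal miRNA, had 24, 16, 27, 30 and 23 UMIs, and miR-142a-3p exceeded it by 383 to 902 times. All 12 neuronal miRNAs were listed, and their sums were 1869, 2581, 2441, 4351 and 2059 CPM, led by miR-9-5p and miR-128-3p. miR-9-5p and miR-128-3p averaged 1104 and 812 CPM, above the 262 CPM of miR-223-3p, a marker given for these cells. Replicate 4 was the highest library for the list and for 9 of its 12 members. The 4 oligodendrocyte miRNAs, led by miR-338-3p, summed to 300, 287, 282, 408 and 316 CPM. The 4 endothelial and mural miRNAs summed to 82.2, 117, 71.2, 336 and 85.4 CPM. miR-126a-3p, the endothelial marker, had 35, 25, 35, 141 and 53 UMIs, and miR-145a-5p of smooth muscle was at 0 in all 5 libraries. Replicate 4 therefore stood above the others on all 3 lists of brain cell types, although each stayed below 0.5% of its miRNA UMIs. Entries under 0.01% as a whole were also highest there, at 5.27% of miRNA UMIs against 3.32 to 4.01% in the other libraries. The rise in replicate 4 was thus not limited to these lists. Whether other cells took part in the flatter distribution of replicate 4 was not tested.

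In the other lists replicate 4 did not stand apart. The 4 erythroid miRNAs summed to 96.2 to 124 CPM, miR-150-5p of lymphocytes had 39.4 to 89.2 CPM, and the 5 epithelial miRNAs summed to 177 to 228 CPM. The 4 muscle and liver miRNAs, miR-1a-3p, miR-133a-3p, miR-206-3p and miR-122-5p, summed to 0 to 70.4 CPM, and none was listed in every library.

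Among 12 miRNAs that respond to activation of macrophages, all were listed in every library, but miR-146a-5p alone made up most of their 87662 ± 10483 CPM. miR-155-5p, which is induced by Toll-like receptor signals, had 25, 43, 40, 22 and 69 UMIs and ranked 288. miR-146a-5p exceeded it by 1162, 933, 1325, 2065 and 1367 times. miR-21a-5p ranked 31 with 2230, 2959, 2406, 3290 and 2629 CPM. miR-146b-5p ranked 48, miR-9-5p 51, miR-187-3p 71 and miR-221-3p 107. miR-132-3p, miR-212-3p, miR-147-3p, miR-222-3p and miR-210-3p each ranked below 250. miR-146a-5p and miR-155-5p, both known to be induced through NF-κB, thus stood at ranks 4 and 288. miR-146a-5p, miR-155-5p and miR-21a-5p are also on the myeloid list, and miR-9-5p and miR-132-3p on the neuronal list.

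Agreement between libraries was highest for the abundant miRNAs. The median coefficient of variation (CV, the SD over the mean) was 13.1% for ranks 1 to 20 of the miRNAs listed in all 5 libraries, 15.5% for ranks 21 to 50, 16.0% for ranks 51 to 100 and 25.4% for ranks 101 to 200. Counting error alone gives a median of 0.912% for ranks 1 to 20 and 12.3% for ranks 101 to 200. As a check for libraries deposited more than once, the counts of each pair were compared, and with a chi-square of 6.69 to 30.3 per degree of freedom none was taken as a duplicate. Spearman's rho between pairs was 0.76 to 0.86 over the 760 miRNAs listed in all 5 libraries, as a description across miRNAs of libraries made with 1 kit. Of the 100 most abundant, 0 to 10 differed over 2-fold between the members of a pair.

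After miR-16-5p, the steadiest of the leading 50 by share were miR-328-3p (0.234, 0.234, 0.253, 0.238 and 0.236%), miR-26a-5p, miR-322-5p and let-7i-5p. The most variable were let-7b-3p with a CV of 49.5%, miR-142b with 45.0%, miR-16-2-3p with 40.7%, miR-99a-5p with 39.4% and miR-29a-3p with 32.8%. miR-99a-5p took 0.221, 0.234, 0.249, 0.333 and 0.515%, highest in replicate 5 like miR-29a-3p. let-7b-3p took 0.265, 0.319, 0.188, 0.114 and 0.0921%. miR-142b took 0.338, 0.483, 0.269, 0.249 and 0.124%, and miR-16-2-3p 0.162, 0.215, 0.128, 0.102 and 0.0713%. These last 3 were each highest in replicate 2 and lowest in replicate 5.

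The same 3 miRNAs also stood apart in a measure of library amplification. Over all miRNAs, replicates 1 to 5 had 11.3, 15.7, 8.99, 7.10 and 5.34 reads per UMI. The shares of these 3 miRNAs fell in the same order of libraries, and whether amplification set their spread was not tested. The median over 129 miRNAs that averaged 100 or more UMIs was 9.58 reads per UMI, and 3.97 and 10.9 were the 5% and 95% quantiles. Only 5 were below 2: miR-3970 at 1.24, let-7b-3p at 1.35, miR-16-2-3p at 1.36, miR-142b at 1.47 and the joint entry let-7a-1-3p/let-7c-2-3p at 1.87. The next was miR-3074-5p at 3.29. Counted by reads, miR-142b ranked 81 and not 30, let-7b-3p 99 and not 36, and miR-16-2-3p 121 and not 42. Their place in the ranking is therefore uncertain. The pair below is shown because it is the closest match found between a low-ratio entry and an abundant miRNA read backwards.
miR-142b: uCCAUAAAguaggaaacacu
miR-142a-3p: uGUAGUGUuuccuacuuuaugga
miR-142b is 3 edits from the reverse complement of miR-142a-3p, both being read from the same hairpin locus on chromosome 11. let-7b-3p is 6 edits from the reverse complement of let-7a-5p, and miR-16-2-3p is 7 from that of miR-16-5p. Of 9 abundant entries within 7 edits of such a reverse complement, 4 had a low ratio and the other 5 had 3.29 to 9.62 reads per UMI. What sets the low ratio was not tested.

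**Figure D5:**
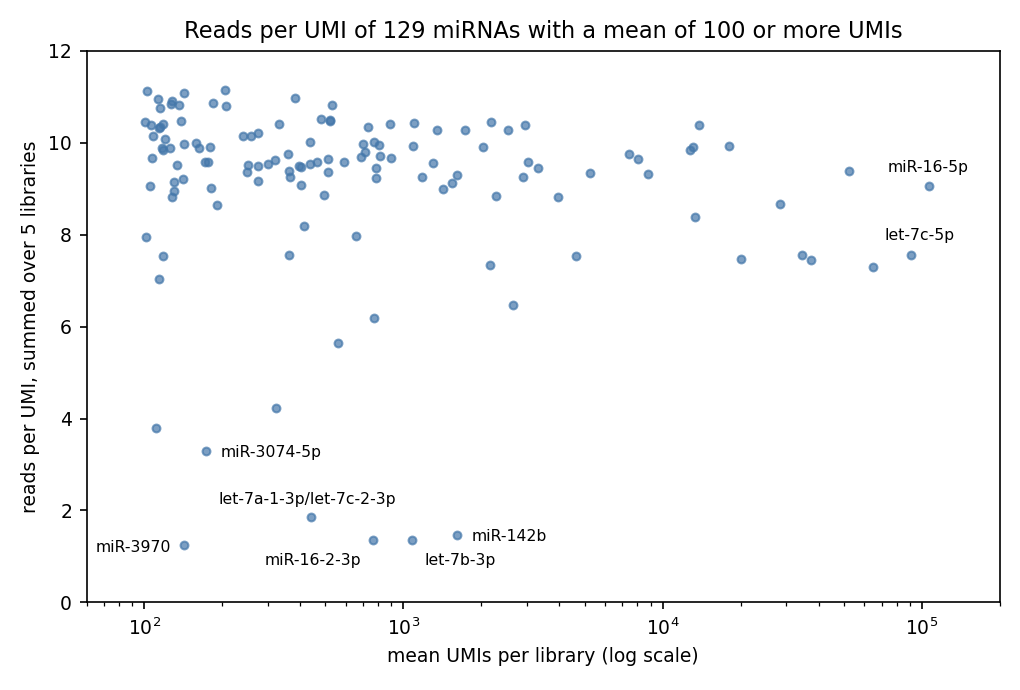
Reads per UMI summed over the 5 WT libraries (y axis) against mean UMIs per library (x axis, log scale) for 129 miRNAs that averaged 100 or more UMIs, 1 point per miRNA. Most points lie near the median of 9.58, and 5 entries lie below 2, among them miR-142b, let-7b-3p and miR-16-2-3p.

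miRNAs were the largest annotated class but, on average, not the largest share of reads. They took 22.2, 27.6, 26.4, 17.1 and 24.2% of all reads (23.5% ± 4.14, SD, n = 5), against 33.4% ± 5.92 for reads too short to assign and 12.2% ± 1.55 that could not be mapped. Among annotated UMIs, miRNAs took 76.6, 80.9, 76.3, 59.4 and 65.9% (71.8% ± 8.88). Other RNAs took 19.9, 15.8, 20.2, 37.3 and 30.6%, tRNAs 1.78% ± 0.185 and entries named as piRNAs 1.62% ± 0.236. Replicates 4 and 5 had the lowest miRNA share of these UMIs and the highest share of other RNA. They also had more reads on messenger RNA, at 0.108, 0.136, 0.136, 0.487 and 0.422%. The read class named as ribosomal RNA was higher there too, at 0.0933, 0.118, 0.118, 0.243 and 0.182%. That class is not a total for ribosomal RNA, since most ribosomal fragments were listed among the other RNAs, as described below. The labels name no batch that separates replicates 4 and 5. With them left out, miR-16-5p averaged 16.8% of miRNA UMIs (16.6% over all 5), let-7c-5p 15.7% (14.5%) and miR-29a-3p 1.52% (1.87%). Leaving them out cannot move a mean by 1 SD of the same 5 libraries, so the SD gives no yardstick for these shifts.

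Fragments of ribosomal RNA made up most of the other RNAs. The 45S precursor took 52.6, 52.4, 54.7, 59.3 and 59.2% of the UMIs in this class, and 18S took 4.90, 4.50, 4.42, 8.40 and 7.68%. Small nucleolar RNAs (snoRNAs), which guide modification of ribosomal RNA, took 24.5, 24.2, 23.3, 11.7 and 14.7%. Small nuclear RNAs, the RNA core of the spliceosome, took 3.69, 3.83, 4.14, 8.20 and 5.83%. Replicates 4 and 5 thus had more ribosomal and small nuclear RNA, and less snoRNA, without overlap with replicates 1 to 3. With 45S and 18S left out, snoRNAs still took 57.5, 56.1, 57.0, 36.3 and 44.2%.

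After 45S and 18S, the leading entries were Gm42418 (3.74%), Gm23969 (2.31%), Snord85 (2.30%), Snord80 (1.12%), Gm25506 (1.07%), A330023F24Rik (1.07%), Gas5 (1.05%) and Snord95 (1.01%). Gm42418 took 3.13, 2.72, 2.99, 5.16 and 4.72%, higher in replicates 4 and 5 like 45S and 18S. It remained in the total of the snoRNA shares given without 45S and 18S. Gas5 is a host gene of snoRNAs, and the file lists it here by a transcript with a retained intron. Snord80 lies at chr1:161037601-161037681, inside that Gas5 transcript at chr1:161037288-161038532. Reads of such a host and its snoRNA cannot be fully told apart. Snord80 took 1.61, 1.38, 1.37, 0.590 and 0.633%, lower in replicates 4 and 5 like the snoRNAs as a class.

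Among tRNAs 1 entry led. tRNA-Ala-TGC-2-1 took 18.1, 17.3, 20.9, 17.9 and 22.8% of tRNA UMIs (19.4% ± 2.33, SD, n = 5). By amino acid, alanine tRNAs took 20.9%, glutamate 15.01%, valine 11.5%, lysine 11.01%, glycine 10.4% and aspartate 6.60%. Copies of a tRNA gene are nearly identical, so totals by amino acid are firmer than single entries. tRNA-Val-CAC-2-3 averaged 4.15%, and tRNA-Glu-CTC-1-8, tRNA-Glu-CTC-1-6, tRNA-Lys-CTT-2-2, tRNA-Glu-CTC-1-5, tRNA-Glu-CTC-1-3, tRNA-Lys-CTT-2-1 and tRNA-Gly-GCC-2-4 lay between 2.92 and 1.73%.

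Mitochondrial tRNAs had the widest spread of the 6 most abundant tRNA groups. They took 8.86, 22.9, 14.5, 11.5 and 5.38% of tRNA UMIs (12.6% ± 6.64, SD, n = 5). Most of this was mt-Ts2, a mitochondrial serine tRNA, with 708, 1963, 1935, 1142 and 1030 UMIs, or 7.06, 19.2, 11.5, 7.60 and 3.71%. Without it the mitochondrial share was 1.80, 3.67, 3.00, 3.93 and 1.67%. By share, replicate 2 was the highest for mt-Ts2 and replicate 5 the lowest.

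The class named as piRNAs was also led by 1 entry. mmu_piR_032974 took 71.8, 67.0, 71.2, 44.7 and 56.5% of its UMIs (62.2% ± 11.6, SD, n = 5). mmu_piR_000958 (4.22%), mmu_piR_005109 (3.86%), mmu_piR_002643 (3.81%) and mmu_piR_000580 (1.56%) followed as single entries, of 160 entries under 91 names. A name can hold several entries, and mmu_piR_000691 (named after its values were seen) has entries of 1.53, 1.30 and 0.926%. piRNAs proper are bound by PIWI proteins, chiefly in the germline. Assignment to a name in this table does not show that binding, and which RNA these fragments come from was not tested.

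Mappable reads outside the annotated classes formed 1971 sequences at 1404 places, of which the leading 10 places held 23.6% of their UMIs. The most abundant place lay in Rmrp, the RNA of RNase MRP, at chr4:43493029-43493059 on the minus strand, with 4.94, 6.11, 4.54, 3.70 and 6.84% of these UMIs. A place at chr15:80082859-80082885, also on the minus strand, lay in Snord43 within an intron of Rpl3 and took 2.52%. The other 3 of the leading 5 lay outside annotated genes of their strand, at chr11:106501026-106501065 (plus strand, 2.91%), chr5:125404245-125404264 (minus strand, 2.83%) and chr3:83012834-83012853 (minus strand, 2.42%). The leading sequences of the last 2 are shown because they share their first 18 bases.
chr5 place: tccccggcatctccaccatt
chr3 place: tccccggcatctccaccaaa
In all, 17 sequences at 6 places began with these 18 bases, and they took 4.35, 8.41, 5.25, 3.64 and 5.65% of the uncharacterised UMIs (5.46% ± 1.82, SD, n = 5). The bases end in cca, the letters that are added to the 3′ end of mature tRNAs. Whether these molecules come from a tRNA was not tested.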

How the data were processed

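Microglial small RNA from 5 WT mice was sequenced on a NextSeq 500 from QIAseq miRNA libraries. The authors deposited, for each entry, a read count and a UMI count made with the kit provider's analysis service and not normalised, and a summary of reads by class. GRCm38 and edgeR 3.24.3 are named in the processing notes of the submitters. The aligner is not given in the sources used here. No UMI value between 1 and 9 is held, so low entries are understated.

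From the UMI counts, shares of each table's total were computed per library and averaged over 5 libraries (Python 3.11.15, pandas 2.3.3, scipy 1.17.1). Libraries were weighted equally and no filter was set on the miRNA table. TMM factors came from edgeR 4.0.16 (R 4.3.3) and ran from 0.859 to 1.19. They leave shares within a library as they are and were used only in 1 alternative, for the median CV. No test between groups was made. Wilson intervals (95%) cover counting error only. Sequences and miRNA loci came from RefSeq GRCm38.p6 and transcripts from GENCODE vM21 (1314 of 1345 matched). Positions of uncharacterised reads count from 0 in the deposited table, so 1 was added. Coordinates in piRNA names were not used, since their build is not stated. Annotation was read on the strand of each entry. Arm pairs needed a mean of 100 UMIs. The scripts were tested on simulated data.

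The members, the lists and the rule for named entries were chosen with earlier results of these data known. The rule took the 20 most abundant miRNAs, all list members, the 8 largest seed families, the 10 most abundant hairpins with the 5 nearest equality and those of the leading 50 that changed arm, the 5 most and 5 least variable of the leading 50 miRNAs, and the leading 10 tRNAs, 10 other RNAs, 5 piRNAs and 5 uncharacterised places. Alternatives were raw reads, other denominators, other minimum counts, CPM scaled by TMM factors, the let-7 family left out and each library left out.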

Additional observations from a re-analysis of the deposited data

Results flagged for a closer look

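Of 82 values given per library and checked for a single library far from the others by Dixon's ratio (critical value 0.71 for 5 libraries), 4 were marked. Chance marks about 1 in 20 such groups. miR-181a-5p, a miRNA known from lymphocyte signalling, took 1.50% of miRNA UMIs in WT replicate 5 and 0.858 to 1.03% in the other 4 libraries. The other 3 were all in WT replicate 4. The neuronal list summed to 4351 CPM there, against 1869 to 2581 CPM in the other libraries. The oligodendrocyte list summed to 408 CPM, against 282 to 316 CPM. The endothelial and mural list summed to 336 CPM, against 71.2 to 117 CPM. miRNA entries under 0.01% as a whole were also highest in WT replicate 4, at 5.27% of miRNA UMIs.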

How the results depend on the processing

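With raw reads in place of UMIs, the 10 most abundant miRNAs held 70.3%, 5p arms 82.7%, the let-7 family 35.3% and miRNAs with a 5′ U 88.2%. Of the leading 20 shares 11 moved by more than 1 SD with raw reads. None moved with any single library left out, with UMIs pooled or, chosen after seeing the data, with WT replicates 1 to 3 only. Pooling or leaving out libraries cannot move a mean by 1 SD of the same 5 libraries, so these settings could not have marked a share. Without the let-7 family 5p arms held 72.9% and a 5′ U 83.0%, and with each miRNA counted once a 5′ U was found in 40.2%. The leading 10 held 52.3% of all annotated UMIs. miRNAs took 71.8% of UMIs, or 72.2% of annotated reads. A minimum of 100 UMIs left 95 miRNAs in all 5 libraries. Hairpins led by the 5p arm numbered 200 by raw reads and 192 with a pair mean of 10 UMIs, both of which admit more pairs, and 28 with a 10-fold margin. The median CV over all miRNAs listed in every library was 27.3%, against 15.5% over the leading 100. With CPM scaled by TMM factors, the median CV over the leading 100 was 20.4%. The 10-UMI limit sets what can be seen of rare entries. No paired analysis was possible because no groups were compared.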
